A study of Mus musculus with 2 samples.

Results

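The enzymes that oxidise the branched-chain amino acids leucine, isoleucine and valine and the enzymes of fatty acid oxidation were followed in the pre-implantation mouse uterus with normal and with repressed VEGF. The genes were taken by symbol from a list of 43, chosen with earlier results of these data known. All 43 were among the 14678 genes of the deposited table. All mice were double transgenic littermates (VEGFtetO/tetO/beta-AKtg/wt), aged 9 to 10 weeks, in which a tetR-Krab repressor driven by the beta-actin promoter can bind tet operators placed in the VEGF promoter. The chow of Dox+ mice held doxycycline at 200 mg/kg, which releases the repressor, and these mice are labelled VEGF-normal. Dox- mice had doxycycline removed at 3 to 4 weeks of age, 6 weeks before RNA isolation, and are labelled VEGF-repression. The repressor is present in both groups and is expressed in the whole animal, so that repression is not limited to the uterus. Doxycycline itself also differs between the groups, so that an effect of the drug and an effect of VEGF cannot be told apart. RNA of 3 uteri per group, collected at gestation day 2.5, was pooled and sequenced as 1 digital gene expression (DGE) library, in which short tags are counted for each gene. This is the paper's description, while the labels describe fragmented mRNA, which was not resolved. A gene's copy number is read here as its tag count.

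Since each group is 1 library, differences between Dox+ and Dox- could not be set against replicate error, and no test of the conditions was possible. Fold changes compare those libraries. The 95% interval after each fold is the exact Clopper-Pearson interval and covers counting error only. The libraries held 5985925 clean tags in Dox+ and 5844314 in Dox-, of which 74.1% and 72.2% were counted in the table. Vegfa, the repressed gene, had 247 copies in Dox+ and 125 in Dox-, 1.93-fold lower (1.55 to 2.41). Hoxa10, a homeobox gene of the uterus, was present in both libraries, with 3120 copies in Dox+ and 1060 in Dox-.

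Branched-chain amino acids are first stripped of their amino group by a transaminase and then decarboxylated by the branched-chain ketoacid dehydrogenase (BCKDH) complex, the committed step. The resulting branched acyl-CoA esters are oxidised inside mitochondria by separate sets of enzymes for leucine, isoleucine and valine. Fatty acids are activated to acyl-CoA, carried into mitochondria as carnitine esters, and shortened in a repeated cycle of dehydrogenation, hydration, oxidation and thiolysis. Both pathways pass electrons from acyl-CoA dehydrogenases to the electron transfer flavoprotein (ETF), and both deliver acetyl-CoA to the citrate cycle. The uterus is a mixed tissue of epithelium, stroma, vessels and smooth muscle, and in such bulk RNA fewer cells of a type and less RNA per cell cannot be told apart.

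A gene was compared where its copies in Dox+ and Dox- came to 200 or more together, which held for 36 of the 43 enzyme genes. A gene is described as having fallen or risen when the Dox- level per clean tag differed from the Dox+ level by at least 1.5-fold. Of the 36 genes, 9 fell in Dox- (25%), where 14.7% of all 6547 compared genes did. In the other direction 4 rose (11.1%), beside 15.2% of all compared genes. These shares are a description only, since the list was chosen with earlier results of these data known. From the same libraries the study had reported valine, leucine and fatty acid pathways for its down-regulated genes. The 9 that fell were Hadh, Cpt2, Etfb, Bcat2, Aldh6a1, Acaa2, Acaa1a, Bcat1 and Eci1, and the 4 that rose were Acsl5, Cpt1a, Acadsb and Acad8. The remaining 23 lay between. The median log2 ratio of Dox- over Dox+ was -0.26 over the 36 genes and 0.03 over all compared genes. The middle part of the 36 log2 ratios, from the first to the last quartile, ran from -0.57 to 0.09, and that of all compared genes from -0.36 to 0.40. By counting error alone, 17 of the 36 had an interval wholly below equal levels, beside 31.5% of all compared genes, and 6 had one wholly above, beside 34.8%. With the wider limit of an absolute log2 ratio above 0.5, Acat1 and Etfa joined those that fell, which made 11, beside 17.8% of all compared genes, and 4 rose, beside 18.8%. A minimum of 2-fold was passed by 4 genes downward (Hadh, Cpt2, Etfb and Bcat2), beside 5.62% of all compared genes, and by 3 upward (Acsl5, Cpt1a and Acadsb), beside 4.61%. The whole interval lay past 1.5-fold for 6 that fell, beside 7.87%, and for 3 that rose, beside 7.21%.

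Several enzymes of the same pathway moved in opposite directions. In the fatty acid pathway the activating enzyme Acsl5 and the entry enzyme Cpt1a rose, and Cpt2, Hadh, Acaa2, Eci1 and Etfb, which act after entry, fell. This did not hold for the whole pathway. Acadvl, Acadl, Acadm, Acads, Hadha, Hadhb, Echs1, Etfa and Etfdh also act after entry and neither fell nor rose, and Hadhb was 1.41-fold higher. At entry, Slc25a20 neither fell nor rose, and Cpt1c, of a further list below, fell. In the amino acid pathway both transaminase genes fell, and the dehydrogenase genes Acadsb and Acad8 rose. The sequences just before the start sites of the 3 fatty acid oxidation genes with the largest falls and the 2 with the largest rises among the compared genes are shown here, since each of these genes differed by over 2-fold. They are the 250 bases upstream of the start in RefSeq on GRCm38.p6, written 5′ to 3′ on the strand of the gene, and capitals mark GC boxes (GGGCGG or its reverse complement CCGCCC).
Hadh (chr3:131272102-131272351, minus strand): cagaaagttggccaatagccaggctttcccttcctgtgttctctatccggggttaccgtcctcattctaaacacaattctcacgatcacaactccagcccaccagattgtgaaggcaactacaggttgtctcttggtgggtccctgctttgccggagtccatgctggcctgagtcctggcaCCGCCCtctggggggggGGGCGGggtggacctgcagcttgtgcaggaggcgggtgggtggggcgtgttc
Cpt2 (chr4:107923590-107923839, minus strand): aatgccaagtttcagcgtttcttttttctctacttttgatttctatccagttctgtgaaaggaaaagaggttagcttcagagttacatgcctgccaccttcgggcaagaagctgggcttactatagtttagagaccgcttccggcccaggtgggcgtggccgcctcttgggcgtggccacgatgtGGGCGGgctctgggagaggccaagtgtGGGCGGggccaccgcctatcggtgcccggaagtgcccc
Etfb (chr7:43443822-43444071, plus strand): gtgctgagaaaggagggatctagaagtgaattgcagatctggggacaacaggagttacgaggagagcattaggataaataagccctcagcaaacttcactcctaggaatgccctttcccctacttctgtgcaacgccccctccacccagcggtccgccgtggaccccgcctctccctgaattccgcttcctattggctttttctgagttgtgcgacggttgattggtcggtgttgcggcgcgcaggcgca
Acsl5 (chr19:55253119-55253368, plus strand): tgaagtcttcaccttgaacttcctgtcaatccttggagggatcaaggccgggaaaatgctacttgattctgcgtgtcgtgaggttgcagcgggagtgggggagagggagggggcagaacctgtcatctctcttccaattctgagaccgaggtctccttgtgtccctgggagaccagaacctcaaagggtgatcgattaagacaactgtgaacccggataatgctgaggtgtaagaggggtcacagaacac
Cpt1a (chr19:3323051-3323300, plus strand): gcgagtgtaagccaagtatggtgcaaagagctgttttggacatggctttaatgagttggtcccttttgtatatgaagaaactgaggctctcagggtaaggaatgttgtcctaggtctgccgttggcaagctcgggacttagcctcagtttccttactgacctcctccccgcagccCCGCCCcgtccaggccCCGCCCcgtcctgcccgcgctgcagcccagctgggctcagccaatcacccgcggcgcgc

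GC boxes stood before Hadh, Cpt2 and Cpt1a, 2 in each, and none stood in these 250 bases of Etfb or Acsl5. A GC box therefore occurred in genes that fell and in a gene that rose. Promoter windows that add the 50 bases after the start were at hand for 39 of the 43 genes, all but Dbt, Mut, Acat1 and Acaa2. In them GGGCGG, on either strand, was found in 26 of the 39 (66.7%), beside 73.6% of the 4796 compared genes with such a window and 38.2% of all 27025 genes with one. The hexamer AGGTCA, the core of many nuclear receptor sites, was found in 9 of the 39 (23.1%), beside 14.0% of the compared genes and 18.1% of all. Among the 9 were Cpt1a, which rose, and Bcat1 and Aldh6a1, which fell, and the rest did neither or were not compared. The longer letters TCAAGGTCA, a form bound by estrogen-related receptors that contains the hexamer, and the direct repeat 1 element, in which the hexamer is repeated after 1 base of any kind and which PPAR and RXR bind, were in none of the 39 windows and in 0.334% and 0.0417% of the compared genes. The NRF1 element, bound by a regulator of mitochondrial genes, was in 1 window, that of Etfdh (2.56%), beside 2.65% of the compared genes. A match of letters is a description, not a binding site, and an absent match says only that the letters are not in this window.

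The levels of the enzyme genes were mostly above those of the typical gene. In Dox+ they ranged from 47 copies (Acsl3) to 3205 (Bcat1) with a median of 267, where the median of all genes with a tag was 86. In Dox- they ranged from 12 copies (Ehhadh) to 2018 (Bcat1) with a median of 249. At least 100 copies were counted for 37 of the 43 genes in Dox+ (86.0%) and for 35 in Dox-, and for 46.3% of all genes with a tag in each library. Summed over the 43 genes, the level was 3375 tags per 1000000 clean tags (TPM) in Dox+ and 2628 TPM in Dox-, 1.28-fold lower (1.26 to 1.31). Bcat1 held the most tags, and without it the ratio of Dox- over Dox+ was 0.804 in place of 0.779.

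Copies are not corrected for length, and whether they should be depends on the library. Counts of 1 tag per transcript do not grow with length and counts of fragments do, and the sources describe both kinds. Levels of different genes are therefore given on both scales. By copies in Dox+, Bcat1 was first with 3205, followed by Oxct1 with 1546, Etfb and Acaa2 with 1495 each and Etfa with 1035. Per kilobase of the longest GENCODE transcript, Etfb was first with 1722 copies per kilobase, followed by Acaa2 with 987, Etfa with 744, Eci1 with 467 and Oxct1 with 438. Bcat1, with a transcript of 7833 bases, was seventh on that scale with 409, so that its place is not settled. Etfb, Acaa2, Etfa and Oxct1 were among the first 5 on both scales. Acsl3, Ehhadh and Acsl1 were the last 3 on both scales, with 47, 49 and 59 copies and with 14.7, 16.2 and 15.2 copies per kilobase.

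**Figure D1:**
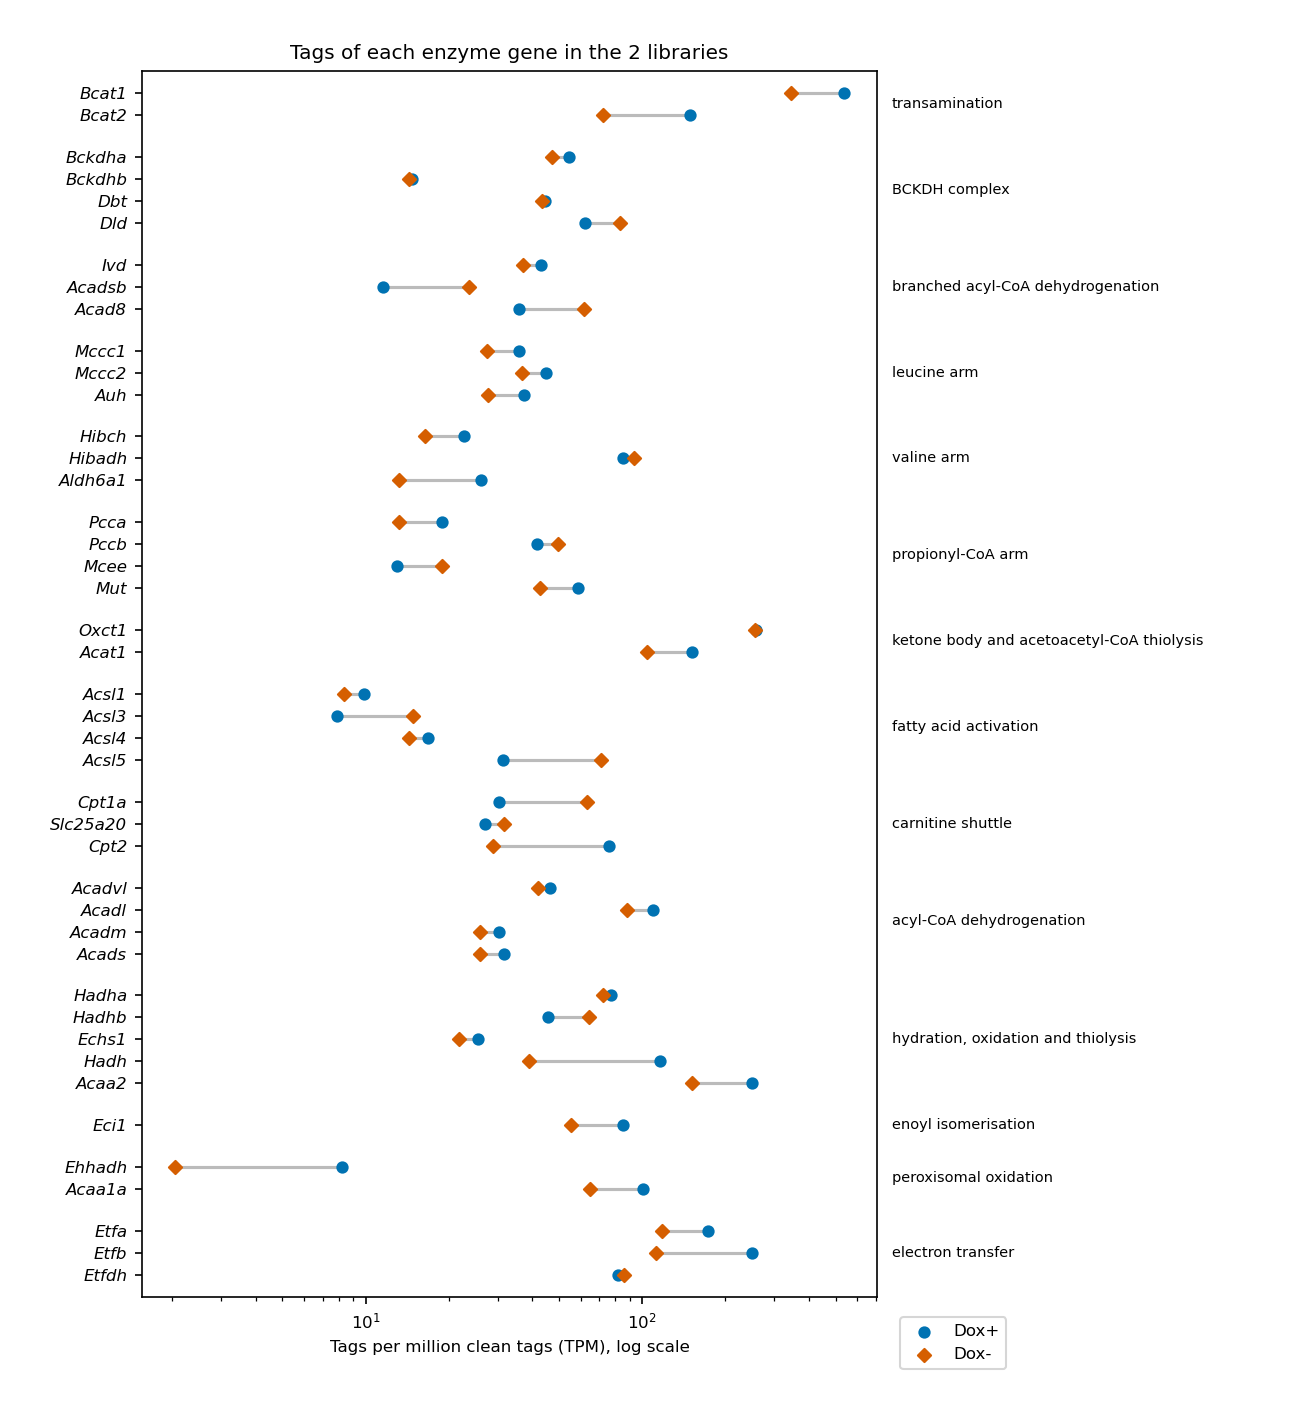
Levels in TPM (log axis) of the 43 enzyme genes in the Dox+ library (circles) and the Dox- library (diamonds), 1 library of 3 pooled uteri each, grouped by enzyme step. Bcat1 is the highest in both libraries, Ehhadh has the lowest Dox- value, and the diamonds of Acsl5, Cpt1a, Acadsb and Acad8 stand to the right of their circles.

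Transamination was lower for both genes. Bcat1, the cytosolic branched-chain transaminase (chromosome 6, 144942355 to 145024704, minus strand; all gene positions are on NCBIM37, the mm9 assembly), fell from 3205 to 2018 copies, 1.55-fold (1.47 to 1.64). Bcat2, the mitochondrial transaminase (chromosome 7, 52825523 to 52845080, plus strand), fell from 894 to 421 copies, 2.07-fold (1.84 to 2.33). There were thus 3.59 copies of Bcat1 for each copy of Bcat2 in Dox+ and 4.79 in Dox-. This balance differed 1.34-fold (1.17 to 1.52) between the libraries, so that the mitochondrial form fell further. Bcat1 lay just inside the 1.5-fold limit, and its interval crossed it.

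None of the subunits of the BCKDH complex passed the limit in either direction. Bckdha, which encodes the alpha subunit of the decarboxylase, had 325 copies in Dox+ and 276 in Dox-. Bckdhb, the beta subunit, had 88 and 84 copies, too few to be compared, and Dbt, the transacylase core, had 267 and 254. The intervals of these 3 genes included equal levels. Dld, the lipoamide dehydrogenase that also serves the pyruvate and 2-oxoglutarate dehydrogenase complexes, had 372 copies in Dox+ and 484 in Dox-, 1.33-fold higher (1.16 to 1.53) and within the 1.5-fold limit. Together the 4 genes held 176 TPM in Dox+ and 188 in Dox-, a ratio of 1.07 (0.981 to 1.16).

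The acyl-CoA dehydrogenases that follow the complex differed by amino acid. Acadsb, which acts in isoleucine breakdown (chromosome 7, 138554115 to 138589725, plus strand), rose from 69 to 138 copies, 2.05-fold (1.52 to 2.78). Acad8, the isobutyryl-CoA dehydrogenase of valine breakdown (chromosome 9, 26781720 to 26807151, minus strand), rose from 215 to 360 copies, 1.71-fold (1.44 to 2.04). Ivd, the isovaleryl-CoA dehydrogenase of leucine breakdown, had 258 copies in Dox+ and 217 in Dox-, 1.16-fold lower with an interval (0.965 to 1.40) that included equal levels. Acadsb, with 207 combined copies, was only just above the minimum for comparison.

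The later enzymes of leucine breakdown had lower values in Dox- without passing the limit. Mccc1 and Mccc2, the subunits of methylcrotonyl-CoA carboxylase, had 215 and 269 copies in Dox+ and 161 and 215 in Dox-, 1.30-fold and 1.22-fold lower. Auh, the methylglutaconyl-CoA hydratase, had 223 and 162 copies, 1.34-fold lower (1.09 to 1.66). All 3 intervals lay below equal levels, and none of the 3 genes reached 1.5-fold.

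In the valine arm the last enzyme differed most. Aldh6a1, the methylmalonate semialdehyde dehydrogenase (chromosome 12, 85771673 to 85791900, minus strand), fell from 157 to 77 copies, 1.99-fold (1.51 to 2.65). Hibch, which removes CoA from 3-hydroxyisobutyryl-CoA, had 136 and 96 copies, 1.38-fold lower, and Hibadh, the next dehydrogenase, had 511 and 546. The first step of the arm (Acad8) was thus higher and its last step lower in Dox-.

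Propionyl-CoA, the product shared by isoleucine and valine, is carboxylated by Pcca and Pccb and rearranged by Mcee and Mut. Pcca had 113 copies in Dox+ and 77 in Dox-, and Pccb, its partner subunit, had 249 and 289. Mcee, the epimerase, had 78 and 110 copies, and Mut, the mutase, had 350 and 249, 1.37-fold lower (1.16 to 1.62). None of these genes was called, and Pcca and Mcee had fewer than 200 combined copies. The arm held 132 TPM in Dox+ and 124 in Dox-, a ratio of 0.940 whose interval (0.849 to 1.04) included 1.

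Oxct1, the succinyl-CoA transferase that starts the use of ketone bodies, had 1546 copies in Dox+ and 1497 in Dox-, and its interval (0.939 to 1.08-fold lower) was narrow around equal levels. Acat1, the mitochondrial thiolase of acetoacetyl-CoA, had 908 and 608 copies, 1.46-fold lower (1.31 to 1.62), just outside the limit. Acat1 and Etfa were the called range's nearest neighbours outside it on the lower side, and Eci1, Bcat1 and Acaa1a were the nearest inside it.

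**Figure D2:**
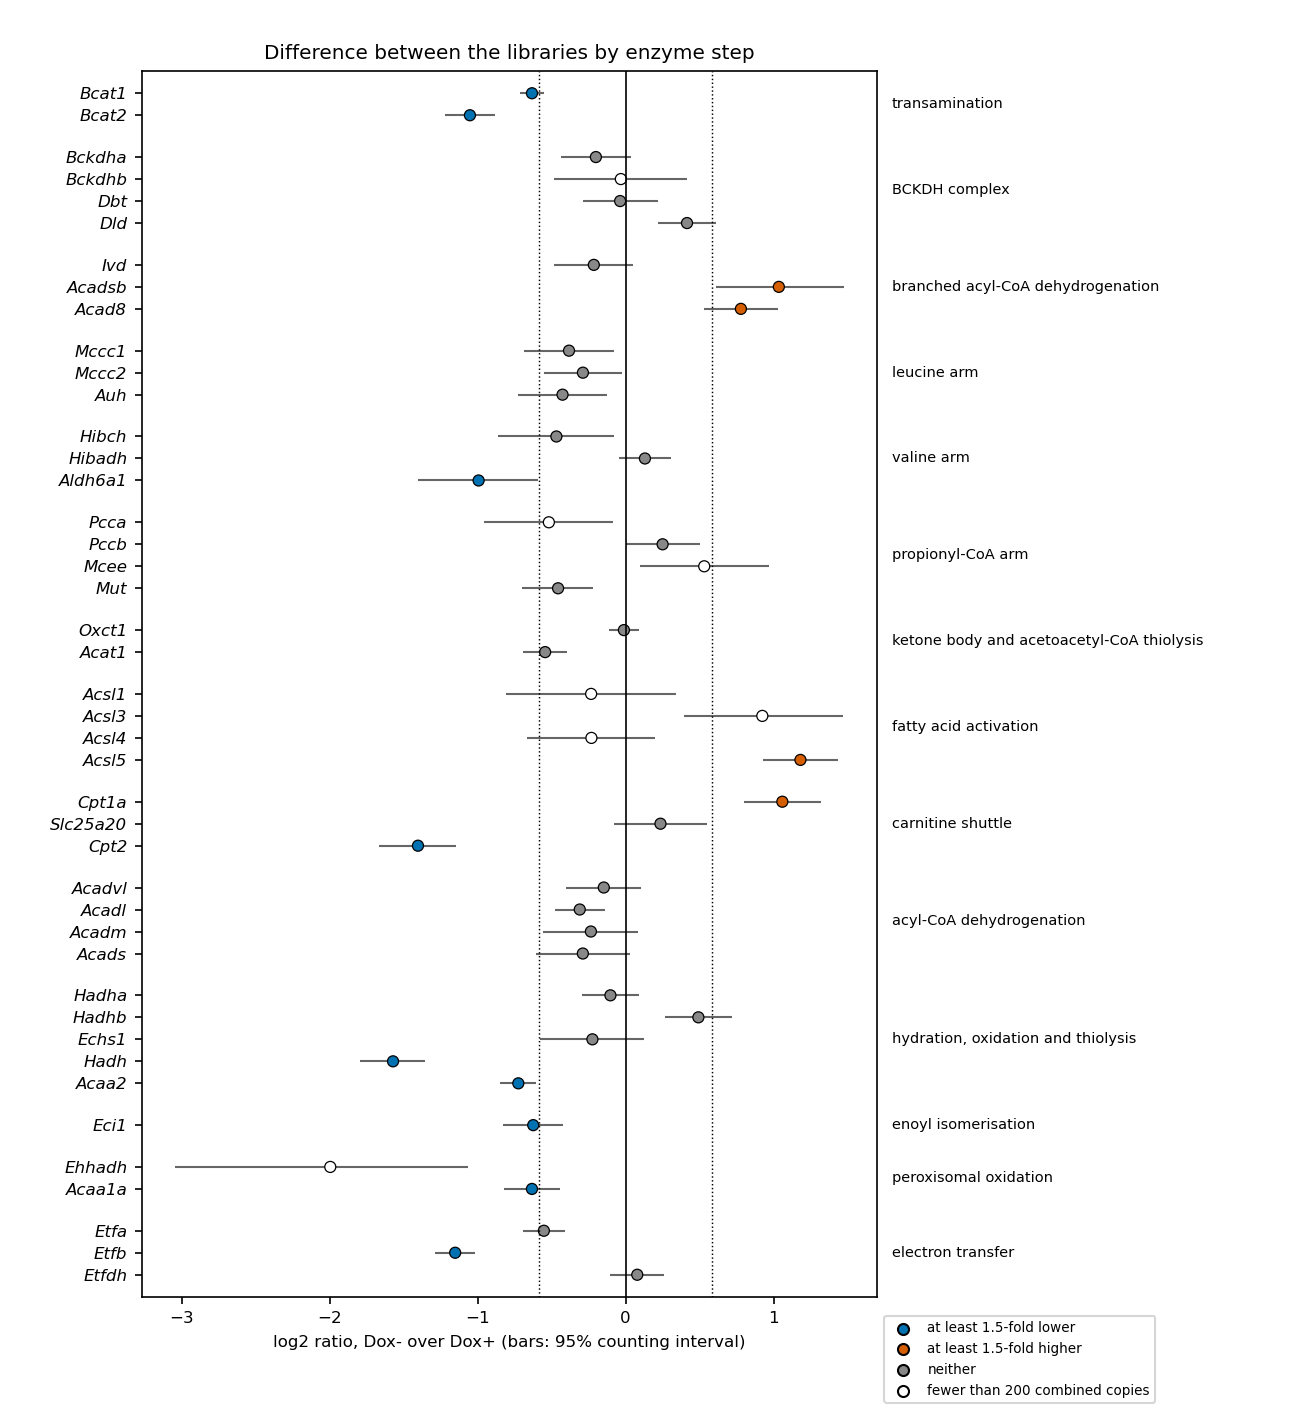
The log2 ratio of Dox- over Dox+ for the 43 enzyme genes by enzyme step, with 95% counting intervals as bars and dotted lines at 1.5-fold in each direction. Open circles have fewer than 200 combined copies. Hadh and Cpt2 lie farthest to the left and Acsl5 and Cpt1a farthest to the right among the compared genes.

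Activation of fatty acids was measured with few copies for 3 of its 4 genes. Acsl5, an acyl-CoA synthetase (chromosome 19, 55327859 to 55371117, plus strand), rose from 188 to 416 copies, 2.27-fold (1.90 to 2.71), the largest rise of the 36 compared enzyme genes. Acsl3 had 47 copies in Dox+ and 87 in Dox-, 1.90-fold higher (1.31 to 2.76), and was under the copy minimum. Acsl1 and Acsl4 had 59 and 101 copies in Dox+ and 49 and 84 in Dox-, with intervals that included equal levels. Summed over the 4 genes the ratio was 1.65 (1.45 to 1.87), and Acsl5 held 188 of the 395 tags in Dox+ and 416 of the 636 in Dox-.

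The carnitine shuttle held the sharpest contrast. Cpt1a, the outer membrane carnitine palmitoyltransferase that controls entry of fatty acids into mitochondria (chromosome 19, 3323301 to 3385732, plus strand), rose from 182 to 370 copies, 2.08-fold (1.74 to 2.50). Cpt2, the inner membrane enzyme that turns the carnitine ester back into acyl-CoA (chromosome 4, 107576586 to 107596215, minus strand), fell from 455 to 168 copies, 2.64-fold (2.21 to 3.18). Slc25a20, the carrier between them, had 161 and 185 copies. Cpt2 stood above Cpt1a in Dox+ and below it in Dox-, by copies and also per kilobase of transcript, where the values were 192 and 42.3 copies per kilobase in Dox+ and 70.8 and 86.0 in Dox-. For each copy of Cpt2 there were 0.400 copies of Cpt1a in Dox+ and 2.20 in Dox-, a 5.51-fold difference (4.25 to 7.13). Summed over the 3 genes there were 133 TPM in Dox+ and 124 in Dox-, a ratio of 0.928 with an interval (0.838 to 1.03) that included 1.

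None of the 4 acyl-CoA dehydrogenases of straight-chain fatty acids passed the limit. Acadvl, for very long chains, had 278 copies in Dox+ and 245 in Dox-, and Acadm, for medium chains, had 182 and 151. Acads, for short chains, had 189 and 151 copies, and Acadl, for long chains, had 654 and 515, 1.24-fold lower (1.10 to 1.39). All 4 log2 ratios lay between -0.31 and -0.15, and Acadl alone of the 4 had an interval that left out equal levels.

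In the rest of the cycle the genes split. Hadh, the 3-hydroxyacyl-CoA dehydrogenase for medium and short chains (chromosome 3, 130936337 to 130975019, minus strand), fell from 694 to 228 copies, 2.97-fold (2.56 to 3.47). This was the largest fall of the 36 compared enzyme genes, and its log2 ratio stood at percentile 1.83 of all compared genes. Acaa2, the mitochondrial thiolase, fell from 1495 to 883 copies, 1.65-fold (1.52 to 1.80). Echs1, the short-chain hydratase, had 152 and 127 copies, with an interval that included equal levels.

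Hadha and Hadhb encode the subunits of the mitochondrial trifunctional protein, which carries out these steps for long chains. Hadha had 462 copies in Dox+ and 420 in Dox-, 1.07-fold lower (0.939 to 1.23). Hadhb had 274 and 376 copies, 1.41-fold higher (1.20 to 1.65). The genes lie head to head on chromosome 5, Hadha on the minus strand (30444841 to 30481702) and Hadhb on the plus strand (30481788 to 30511133), with 85 bases between their annotated starts. That interval is shown because the genes that flank it had different ratios. It was read from NCBIM37 on the plus strand, and capitals mark GC boxes (GGGCGG).
Hadha to Hadhb (chr5:30481703-30481787): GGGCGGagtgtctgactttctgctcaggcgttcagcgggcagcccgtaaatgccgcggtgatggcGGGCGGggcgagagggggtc

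The balance of Hadha to Hadhb was 1.69 copies in Dox+ and 1.12 in Dox-, a 1.51-fold difference (1.22 to 1.86). Their log2 ratios were -0.10 and 0.49, and neither gene passed the 1.5-fold limit by itself. Exons of Hadha overlap those of Fam59b on the other strand.

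Eci1, the isomerase needed for unsaturated fatty acids (chromosome 17, 24563628 to 24576261, plus strand), fell from 510 to 323 copies, 1.54-fold (1.34 to 1.78), just inside the limit. The peroxisomal genes were lower as well. Acaa1a, the peroxisomal thiolase (chromosome 9, 119250412 to 119259413, plus strand), fell from 602 to 379 copies, 1.55-fold (1.36 to 1.77). Its value is uncertain, since 51.4% of the 21-base words of its longest transcript also occur in Acaa1b, a close paralog listed with 6 and 0 copies, and tags shared by several genes were not counted. Ehhadh, the peroxisomal bifunctional enzyme, had 49 copies in Dox+ and 12 in Dox-, 3.99-fold lower (2.09 to 8.23), and was under the copy minimum.

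Electron transfer from the acyl-CoA dehydrogenases was represented by 3 genes. Etfb, the beta subunit of ETF (chromosome 7, 50699478 to 50713170, plus strand), fell from 1495 to 657 copies, 2.22-fold (2.03 to 2.44). Etfa, the alpha subunit of the same heterodimer, had 1035 and 689 copies, 1.47-fold lower (1.33 to 1.62), just under the limit. Etfdh, which hands the electrons to ubiquinone, had 488 and 503 copies, within counting error of equal levels. There were 0.692 copies of Etfa per copy of Etfb in Dox+ and 1.05 in Dox-, a 1.51-fold difference (1.32 to 1.73). The order of the subunits depended on the scale in Dox-, since per kilobase Etfb stood above Etfa in both libraries, at 1722 and 744 copies per kilobase in Dox+ and 757 and 495 in Dox-.

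The 7 pairs of partner genes, chosen after the values were seen, gave a measure that does not depend on the library size. Beside the pairs above, Pcca per Pccb went from 0.454 to 0.266, a 1.70-fold difference (1.20 to 2.42). Bckdha per Bckdhb was 3.69 and 3.29, and Mccc1 per Mccc2 was 0.799 and 0.749. For these last pairs the differences of 1.12-fold (0.789 to 1.60) and 1.07-fold (0.806 to 1.41) were not detectable at this depth. The other 5 intervals left out an equal balance. Of all compared genes taken singly, 31.5% had an interval below equal levels and 34.8% one above. The share over other pairs of genes was not computed, so that this count is a description only.

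**Figure D3:**
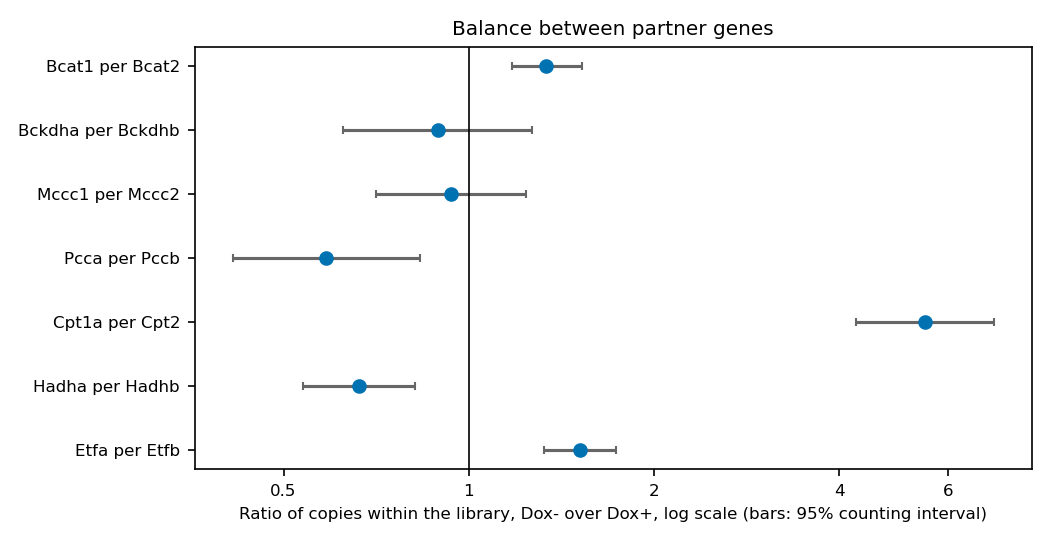
Copies of the first gene per copy of the second within each library, given as the ratio of Dox- over Dox+ on a log axis with 95% counting intervals, for 7 pairs of partner genes. Cpt1a per Cpt2 stands apart at 5.51, and the intervals of Bckdha per Bckdhb and Mccc1 per Mccc2 cross 1.

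Other genes of the same pathways were read from lists of their own. The counts of each list stand beside 14.7% of all 6547 compared genes that fell and 15.2% that rose. Of 18 compared genes of a further list for branched-chain amino acid breakdown and its neighbours, 9 fell and 2 rose, with a median log2 ratio of -0.55. Slc7a5, a carrier that imports these amino acids, rose from 232 to 408 copies, 1.80-fold, and Mmadhc, a cobalamin trafficking protein, rose from 268 to 451, 1.72-fold. Bckdk, the kinase that inactivates the BCKDH complex, fell from 962 to 526 copies, 1.79-fold (1.60 to 1.99), and was named after its value was seen.

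Of 8 compared genes of a further list for fatty acid oxidation, 2 fell and none rose by 1.5-fold. These were Decr1, the dienoyl-CoA reductase for unsaturated fatty acids, with 476 and 219 copies, 2.12-fold (1.80 to 2.50), and Cpt1c, the carnitine palmitoyltransferase form best known from neurons, with 140 and 88, 1.55-fold (1.18 to 2.05). In a further peroxisomal list 4 of 8 fell and 1 rose. Phyh, which starts the oxidation of branched fatty acids such as phytanic acid, fell from 325 to 163 copies, 1.95-fold, and Hsd17b4, the peroxisomal D-bifunctional enzyme, from 613 to 317, 1.89-fold. Cat, the catalase, rose from 114 to 168 copies, 1.51-fold with an interval (1.18 to 1.93) that crossed the limit.

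Mitochondrial genes outside these pathways had medians nearer to that of all genes, though lower values were not particular to the enzyme genes. Of 15 compared citrate cycle genes none fell and 1, Fh1, rose, from 118 to 181 copies, with a median of -0.18 and a range from -0.58 to 0.65. Their mean was -0.16, beside -0.22 for the 36 enzyme genes and -0.16 for the branched-chain amino acid genes among them. Intervals lay below equal levels for 9 of the 15 and above for 4, beside 31.5% and 34.8% of all compared genes. Of 9 genes of the mitochondrial outer membrane, 2 fell, Tomm40 from 251 to 88 copies and Samm50 from 243 to 151, and the median was 0.15 beside a mean of -0.17. Over 7 transcriptional regulators of oxidation the median was 0.15 and the mean -0.02. Of these, Klf15, a glucocorticoid-responsive factor, fell from 223 to 93 copies, 2.34-fold (1.83 to 3.02). Ppard and Esrra had 130 and 101 copies in Dox+ and 124 and 113 in Dox-. Ppara, Pparg and Ppargc1a had fewer than 200 combined copies, with 21, 2 and 9 in Dox+ and 3, 7 and 7 in Dox-. Ppara was 6.83-fold lower (2.04 to 35.8), and the intervals of Pparg and Ppargc1a included equal levels. All of these regulators but Klf15 were named after their values were seen.

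**Figure D4:**
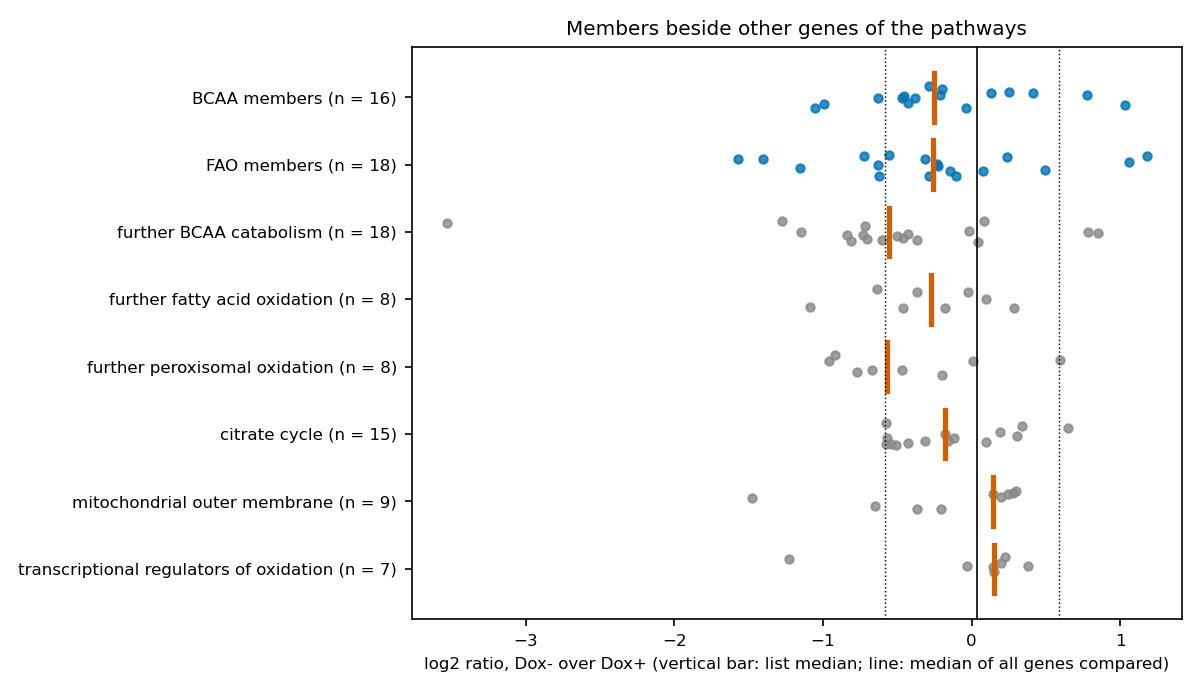
The log2 ratio of Dox- over Dox+ for each compared gene (points) of the branched-chain amino acid (BCAA) and fatty acid oxidation (FAO) groups and of 6 lists of other genes. Vertical bars give list medians, the line the median of all compared genes (0.03), and dotted lines 1.5-fold. The bars of the first 2 groups lie at -0.25 and -0.26, and those of the outer membrane genes and regulators at 0.15.

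Markers of the cell types of the uterus also differed between the libraries. Their counts, too, stand beside 14.7% of all compared genes that fell and 15.2% that rose. The 9 smooth muscle markers summed to 6670 TPM in Dox+ against 4584 in Dox-, and 5 of them fell, among them Cnn1 from 4866 to 2851 copies, Des from 4647 to 2578 and Smtn from 1698 to 877. All 9 had intervals below equal levels, beside 31.5% of all compared genes. The 6 skeletal muscle markers in the table summed to 651 and 234 TPM. Acta1 fell from 3385 to 1241 copies and Tnni2 from 408 to 99, Tnnc2 was at 0 in Dox- and Mb at 0 in Dox+. Acta1 alone held 3385 of the 3897 tags of this list in Dox+ and 1241 of the 1369 in Dox-. Myh1, Myh2, Myh4 and Pvalb were not in the table. The 10 adipocyte markers in the table summed to 333 and 249 TPM, and of 4 compared Adipoq fell, from 157 to 78 copies. Ucp1, the marker of brown fat, had 0 and 2 copies. Lower sums in Dox- were not particular to muscle and fat. The 8 uterine markers summed to 1477 TPM in Dox+ and 815 in Dox-, and the endothelial and stromal sums given below were lower as well. Epithelial and leukocyte sums were higher in Dox-.

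The 10 epithelial markers summed to 1270 TPM in Dox+ against 1817 in Dox-, and 4 of them rose and 2 fell. Cldn7 rose from 877 to 2263 copies, Epcam rose from 467 to 821 and Cldn3 fell from 1482 to 494, the changed genes with the most copies. Elf3, from 185 to 1083 copies, and Krt7, from 179 to 600, had the largest rises of the list and were named after their values were seen. Of 7 stromal markers, with 1269 and 1221 TPM, Lum rose from 1549 to 2779 copies, and Vim and Hand2 fell, from 2612 to 1680 and from 985 to 143. The 8 endothelial markers summed to 240 and 167 TPM, with falls of Cdh5 from 446 to 216 copies and of Tie1 from 191 to 100, and the 8 leukocyte markers to 60.5 and 83.2 TPM. Of 7 compared uterine markers 3 fell, which were Hoxa10, Hoxa11 (2573 to 785) and Msx1 (1757 to 727), and Wnt4 was at 0 in Dox+ and at 18 copies in Dox-. The 3 that rose, named after their values were seen, were Wnt7a (48 to 273), Pgr (687 to 1251) and Esr1 (165 to 262). The part of these markers in the differences of the enzyme genes was not tested.

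The genes that fell and rose also differed in the make-up of their transcripts. The median GC content was 52.9% over the 9 that fell, 46.8% over the 4 that rose and 50.7% over all compared genes, and the median lengths were 1789, 3249 and 2934 bases. Over all compared genes the median log2 ratio went from 0.23 in the decile of lowest GC content to -0.09 in that of the highest. With the trend over GC content subtracted, a setting added after seeing the data, Acaa1a no longer passed the limit, and Etfa and Hibch did. With a trend over length subtracted, also added, Eci1 did not pass it. Exons of 10 of the 43 genes overlap an exon of a gene on the other strand, among them Bcat1, Bcat2, Aldh6a1 and Acaa1a of those that fell, and for these the strand of the tags was relied on as the study counted it.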

How the data were processed

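DGE libraries of uterine RNA were measured in 1 Dox+ and 1 Dox- pool of 3 uteri, from 6 µg of total RNA each. The authors removed adaptor-only, low quality and single-copy tags, matched clean tags against reference mRNAs of mm9, and annotated the unambiguous ones. The deposited counts are copy numbers per gene and are not normalized. The authors' TPM is the copy number per 1000000 clean tags and takes no account of length. CASAVA is named in the submitters' processing notes, and the aligner and the restriction enzyme are not given in the sources used here. The labels describe fragmented mRNA and the paper describes tags, which was not resolved. Columns with the authors' log2 ratio, fold changes, P-value and FDR were not used.

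Library sizes were the only whole numbers of clean tags that give the deposited TPM from the counts, and 27998 of 27998 TPM values were within 0.006 of the value computed from copies. Ratios were taken without a pseudocount, with 95% Clopper-Pearson intervals. For pairs of genes the interval is the exact conditional interval of the odds ratio. With 1 library per group no edgeR or DESeq2 model was fitted. The minimum of 200 combined copies is the study's. For the size of change its methods give an absolute log2 ratio above 0.5 and its results a minimum of 1.5-fold, and the latter was used, with the former as an alternative. Members and lists were chosen with earlier results of these data known. All 43 genes are named, with the 2 largest folds in each direction of each further pathway list and at most 3 genes of each marker list, those past 1.5-fold with the most copies. Some genes that this rule names are not reported here. Transcript lengths, GC content, shared 21-base words and positions are from GENCODE on NCBIM37, and promoters from RefSeq on GRCm38.p6. Intervals and calls were tested on simulated data that held counting error only, so that variation between pools was not part of that test. Alternatives were other scalings (total copies, TMM from edgeR 4.0.16, median of ratios), copy minimums, folds, a pseudocount of 1 TPM and the mean. Python 3.11.15, numpy 2.4.6, scipy 1.17.1, pandas 2.3.3, matplotlib 3.10.9 and R 4.3.3 were used.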

Additional observations from a re-analysis of the deposited data

How the results depend on the processing

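With total copies in the table, TMM or the median of ratios as the library scale, every log2 ratio moved by 0.04, -0.02 or -0.03. The 9 genes that fell and the 4 that rose kept their calls under each of these scalings and with a pseudocount of 1 TPM, and Etfa joined those that fell under the median of ratios. The summed ratio of the 43 genes, 0.779, became 0.800 with total copies, 0.760 with the median of ratios and 0.804 without Bcat1. With an absolute log2 ratio above 0.5, 11 genes fell, with Acat1 and Etfa added, and 4 rose. At a minimum of 2-fold, 4 genes fell and 3 rose. With the whole counting interval past 1.5-fold 6 fell and 3 rose, without Bcat1, Eci1, Acaa1a and Acad8. From 100 combined copies Acsl3 was added to those that rose, and with no minimum Ehhadh to those that fell. With the GC trend subtracted 10 fell, 8 of them among the 9, and with the length trend subtracted 8 fell. From 100 combined copies the median of the outer membrane genes was -0.0015. The median of the enzyme genes ranged from -0.30 to -0.20 over all of these settings. No paired analysis was possible because each group has 1 library, and no library could be left out. The depth limits genes under 200 combined copies, and the variation between pools cannot be estimated.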
